A study of Mus musculus with 10 samples.

Results

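Endothelial cells line the vessels of the lung, and 10 genes that mark them were followed: Pecam1, Cdh5, Cldn5, Tie1, Tek, Flt1, Calcrl, Ramp2, Emcn and Egfl7. They were taken by gene symbol from a table of 33347 mouse genes, and all 10 were found and passed the count filter that left 10844 genes for testing. Each was measured in 10 bulk lung libraries of mice labelled WT that were treated with bleomycin, which breaks DNA, damages the alveolar wall and causes fibrosis. The animals had also been injected with marrow cells selected by the activity of aldehyde dehydrogenase (ALDH). In 5 libraries the cells had high activity (ALDHbr) and in 5 low activity (ALDHdim). Bleomycin and a cell transfer are common to both groups, and no uninjured or untransferred lung was analysed here. No source used here states strain, age, dose or time of sampling. Nor do the labels tie each library to its own animal, and every p-value below therefore reflects library-to-library spread, which may be technical.

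The endothelial barrier rests on homophilic adhesion at cell borders, by VE-cadherin (Cdh5) in adherens junctions, claudin 5 (Cldn5) in tight junctions and PECAM (Pecam1) between them. Receptor tyrosine kinases set how firmly those borders hold. Tek (Tie2) binds angiopoietins and keeps vessels quiescent together with its relative Tie1, while Flt1 binds VEGF with high affinity and can act as a decoy for it. Calcrl is a G protein-coupled receptor that, paired with the accessory protein encoded by Ramp2, becomes a receptor for adrenomedullin, a peptide that tightens the endothelial barrier. Emcn encodes endomucin, a sialomucin of the luminal surface, and Egfl7 encodes a secreted factor of endothelium whose gene also carries the microRNA miR-126.

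Sequences are shown for Flt1, Calcrl and Egfl7, whose levels are described below, together with the microRNA inside Egfl7. Flt1 followed the junction genes over the 10 libraries, but less closely without 2 extreme libraries, ALDHdim 2 and ALDHbr 1. Calcrl and Egfl7 followed each other, and Egfl7 also followed Ramp2. The promoters come from RefSeq on GRCm38.p6 and run from 250 bases before to 50 bases after an annotated start. Capitals mark AGGAAG, which holds the GGAA core of ETS-family sites, CCGGAAG or TATAAA on either strand.
Calcrl promoter, chr2:84425217-84425516, minus strand: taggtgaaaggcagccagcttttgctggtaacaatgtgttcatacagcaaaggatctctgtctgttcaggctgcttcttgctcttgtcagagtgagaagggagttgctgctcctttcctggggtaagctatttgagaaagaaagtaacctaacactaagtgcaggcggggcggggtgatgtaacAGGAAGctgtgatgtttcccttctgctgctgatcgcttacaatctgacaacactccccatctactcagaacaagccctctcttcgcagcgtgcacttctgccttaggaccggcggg
Egfl7 promoter, chr2:26583615-26583914, plus strand, 1 of 3 listed starts: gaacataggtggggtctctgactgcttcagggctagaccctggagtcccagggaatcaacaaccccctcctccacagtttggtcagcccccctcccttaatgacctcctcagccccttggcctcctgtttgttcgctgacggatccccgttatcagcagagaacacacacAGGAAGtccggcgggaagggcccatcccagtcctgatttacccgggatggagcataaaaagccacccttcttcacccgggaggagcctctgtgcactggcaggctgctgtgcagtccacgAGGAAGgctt
Flt1 promoter, chr5:147725962-147726261, minus strand: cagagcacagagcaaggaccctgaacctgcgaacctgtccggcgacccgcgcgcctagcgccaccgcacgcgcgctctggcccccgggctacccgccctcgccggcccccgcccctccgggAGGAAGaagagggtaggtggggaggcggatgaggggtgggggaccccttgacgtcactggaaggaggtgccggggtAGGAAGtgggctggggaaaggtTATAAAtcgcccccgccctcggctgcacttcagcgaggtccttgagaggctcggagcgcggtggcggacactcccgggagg
mmu-miR-126a-3p, seed (bases 2 to 8) in capitals: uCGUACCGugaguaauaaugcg

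RefSeq promoters were matched for 7 of the 10 genes, as 9 windows of 300 bases. AGGAAG, which also lies inside the longer CAGGAAG, was present in 6 of the 9 windows, those of Calcrl, Emcn, Tie1, Flt1 and 2 starts of Egfl7, and in 35.4% of all 32851 mouse promoter windows in the same table. CAGGAAG was present in 4 of 9 windows (Calcrl, Emcn and 2 starts of Egfl7), against 13.3% of all windows. CCGGAAG was in 0 of 9, against 8.9%, and TATAAA was in that of Flt1 alone, against 13.6%. The mature miR-126a-3p lies on the plus strand of chromosome 2 from 26591402 to 26591423, and its hairpin is intronic in 7 of the 7 coding Egfl7 transcripts that span it. It has no row in the count table, and the oligo-dT primed counts of Egfl7 do not measure it.

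Counts came from BRB-seq, a method in which a barcoded oligo-dT primer tags each RNA sample before pooling, so reads lie near the 3′ end and do not scale with transcript length. Totals ran from 588063 counts in ALDHbr 2 to 2002947 in ALDHdim 2. Libraries ALDHbr 3 and ALDHbr 5 stood apart by detecting 24722 and 25377 genes, against at most 21209 in any other library, and values are given with and without them below. Markers of lung were present. Nkx2-1, the lineage factor of lung epithelium, averaged 151 CPM, and Sftpc of alveolar type 2 cells averaged 21873 CPM. Erg and Sox17, transcription factors of endothelium outside the 10 genes, averaged 78.8 and 54.2 CPM. CPM is a count divided by its library's sum over the tested genes, scaled to a common size by TMM, a method that evens out differences in composition.

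No difference between recipients of ALDHbr and of ALDHdim cells was detected for any of the 10 endothelial genes. Estimates were higher in ALDHbr recipients for 4 genes (Ramp2, Egfl7, Calcrl and Emcn) and lower for 6 (Cdh5, Flt1, Tek, Tie1, Cldn5 and Pecam1). The median log2 fold change of the 10 was −0.05, against 0.01 for all genes tested. By the quasi-likelihood test of edgeR with Benjamini-Hochberg adjustment, 0 of the 10 passed the threshold of 0.05 and each had an adjusted p of 0.999. The background was 0% of 10844 genes. At an unadjusted p under 0.05 there were also 0 of the 10, against 3.71% of all genes, and DESeq2 and limma-voom called 0 of the 10 as well. The 2 groups' CPM overlapped for all 10, where 0.535% of all genes had groups that did not overlap. The 95% interval of the fold lay within 2-fold in either direction for 9 of the 10, the exception being Cdh5.

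**Figure D1:**
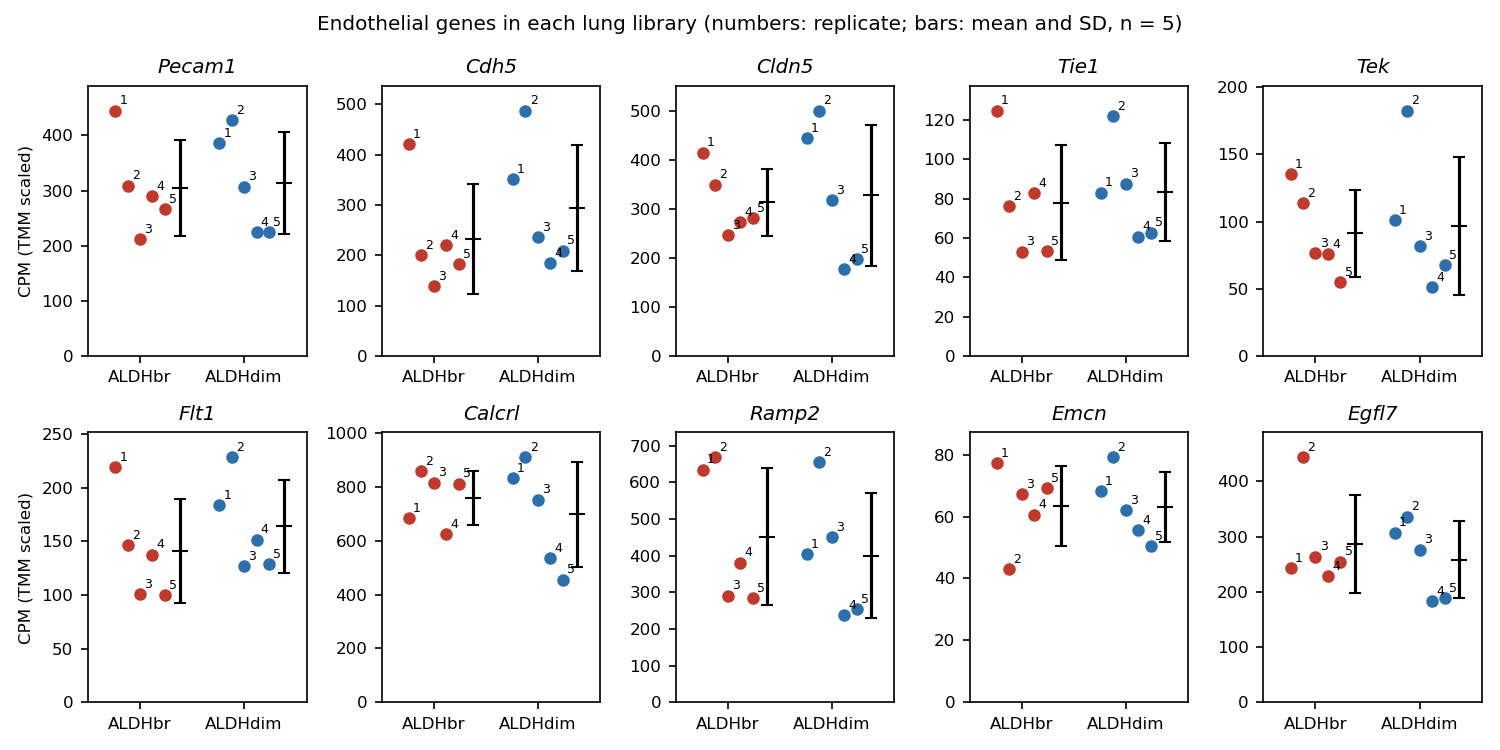
Level of each endothelial gene (CPM, linear axis from 0) in each of the 5 ALDHbr (red) and 5 ALDHdim (blue) libraries, numbered by replicate, with the mean and SD of each group as black bars. The groups overlap for all 10 genes, and ALDHbr 1 and ALDHdim 2 lie near the top of most panels.

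Among the junction genes, Pecam1 (chromosome 11, 106654217 to 106750628, minus strand, GRCm38), an adhesion molecule also carried by platelets and leukocytes, stood at 445, 309, 212, 290 and 267 CPM in ALDHbr 1 to 5. In ALDHdim 1 to 5 it stood at 386, 427, 307, 224 and 224 CPM. The highest and the lowest library were both in the ALDHbr group. The means were 305 ± 86.6 and 314 ± 92.6 CPM (± SD over the 5 libraries of a group, here and below). Its log2 fold change was −0.04 (SE 0.22) with a 95% interval from 0.707- to 1.34-fold.

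Cdh5 (chromosome 8, 104101625 to 104144511, plus strand), the cadherin of endothelial adherens junctions, had values of 421, 200 (199.5), 138, 220.3 and 182 CPM in ALDHbr 1 to 5. Its ALDHdim libraries gave 351, 487, 236, 184 and 209 CPM. One ALDHbr library, number 1, was far above the other 4, which overlapped with the lower 3 ALDHdim libraries. Mean levels were 232 ± 110 against 294 ± 126 CPM, and the log2 fold change of −0.33 (SE 0.33) was the furthest from 0 of the 10 genes, with an interval from 0.481- to 1.32-fold. Without ALDHbr 1 it was −0.67 (edgeR unadjusted p = 0.0403, adjusted p = 0.456), and without ALDHbr 3 and 5 it was −0.05. The former p was the smallest for Cdh5 among fits leaving out 1 library. The share of all genes under 0.05 in that fit is not given here.

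Cldn5 (chromosome 16, 18776847 to 18778262, plus strand), the claudin that seals endothelial tight junctions, was at 415, 350.1, 247, 274 and 282 CPM with ALDHbr cells. With ALDHdim cells it was at 445, 501, 318, 178 and 198 CPM. The ALDHdim libraries took both ends of the range. The group means, 314 ± 68.5 and 328 ± 144 CPM, gave a log2 fold change of −0.07 (SE 0.27) and an interval from 0.634- to 1.44-fold.

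Of the receptor kinases, Tek (chromosome 4, 94739289 to 94874976, plus strand), the angiopoietin receptor, measured 136, 113, 76.3, 75.5 and 55.0 CPM in the ALDHbr libraries. It measured 101, 183, 81.7, 51.4 and 67.6 CPM in the ALDHdim libraries. ALDHdim 2 was the highest of all, 3.56 times the lowest, ALDHdim 4, which was the widest span of the 10 genes. The log2 fold change was −0.11 (SE 0.35), at means of 91.2 ± 32.6 and 96.8 ± 51.3 CPM, with an interval from 0.542- to 1.59-fold. Its sign turned without ALDHdim 2 (0.27).

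Tie1 (chromosome 4, 118471191 to 118490061, minus strand), the coreceptor of Tek, stood at 125, 76.3, 53.0, 82.6 and 53.3 CPM after ALDHbr transfer. After ALDHdim transfer it stood at 83.1, 122, 87.6, 60.6 and 62.6 CPM. In each group 1 library, ALDHbr 1 or ALDHdim 2, stood well above the other 4. Means of 78.0 ± 29.3 and 83.2 ± 24.8 CPM gave −0.07 (SE 0.25) on the log2 scale, with an interval from 0.655- to 1.38-fold.

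Flt1 (chromosome 5, 147561604 to 147726011, minus strand), a VEGF receptor of endothelium and also of monocytes, was at 219, 147, 101, 138 and 99.96 CPM in ALDHbr libraries. It was at 184, 229, 127, 152 and 129 CPM in ALDHdim libraries. ALDHbr 1 and ALDHdim 2 were again the 2 highest, and ALDHbr 3 and ALDHbr 5 the 2 lowest. The gene averaged 141 ± 48.6 against 164 ± 42.9 CPM, a log2 fold change of −0.21 (SE 0.22) with an interval from 0.621- to 1.20-fold. Without ALDHbr 1 it was −0.45 (edgeR unadjusted p = 0.0316, adjusted p = 0.434), and without ALDHbr 3 and 5 it was 0.05. The former p was likewise the smallest for Flt1 among fits leaving out 1 library, without the share of all genes beside it. A soluble form of Flt1 made by alternative polyadenylation is not separated by counts summed per gene.

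The adrenomedullin receptor genes had the highest CPM of the 10. Calcrl (chromosome 2, 84330626 to 84425411, minus strand) gave 682, 857, 815, 625 and 811 CPM in ALDHbr libraries and 833, 909.5, 752, 534 and 455 CPM in ALDHdim libraries. The 2 lowest values belonged to ALDHdim 4 and 5, and the other 8 libraries lay between 625 and 909.5 CPM. Its means were 758 ± 99.1 and 697 ± 195 CPM, a log2 fold change of 0.12 (SE 0.19) with an interval from 0.828- to 1.43-fold.

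Ramp2 (chromosome 11, 101246028 to 101259546, plus strand), which carries Calcrl to the cell surface, was at 635, 669, 291, 381 and 284 CPM with ALDHbr cells. It was at 404, 655, 451, 237 and 254 CPM with ALDHdim cells. ALDHbr 1, ALDHbr 2 and ALDHdim 2 formed the top, and ALDHdim 4 and 5 the bottom. At means of 452 ± 187 and 400.15 ± 169.8 CPM the log2 fold change was 0.17 (SE 0.33), with an interval from 0.688- to 1.84-fold, and 0.49 without ALDHbr 3 and 5 (edgeR adjusted p = 0.9998). Ramp2 overlaps Vps25 on the same strand, and Vps25 held 22 counts over all libraries against 5535 of Ramp2. How reads in the overlap were assigned is stated by no source used here, so these counts may not separate both genes.

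Emcn (chromosome 3, 137341067 to 137432185, plus strand), the luminal sialomucin, had the lowest mean and the narrowest spread, at 77.3, 43.0, 67.3, 60.6 and 69.1 CPM in ALDHbr libraries. The ALDHdim libraries read 68.1, 79.2, 62.1, 55.6 and 50.5 CPM. The lowest value, in ALDHbr 2, rests on 22 counts, with a counting error of 21.3%. Means of 63.5 ± 12.9 and 63.1 ± 11.2 CPM differed by 0.03 (SE 0.16) on the log2 scale, with an interval from 0.804- to 1.30-fold.

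Egfl7 (chromosome 2, 26580014 to 26593120, plus strand) read 243, 444, 264, 228 and 255 CPM in ALDHbr libraries and 307, 336, 276, 184 and 189 CPM in ALDHdim libraries. ALDHbr 2 was the highest by a wide margin, and ALDHdim 4 and 5 were the lowest. Its log2 fold change of 0.14 (SE 0.21), at 287 ± 88.9 and 258 ± 69.2 CPM, had an interval from 0.807- to 1.495-fold and was −0.07 without ALDHbr 2. On the opposite strand Egfl7 overlaps Agpat2, which held 346 counts against 3397 of Egfl7. No source used here states whether counting used strand, so reads of these 2 genes may not be separated.

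**Figure D2:**
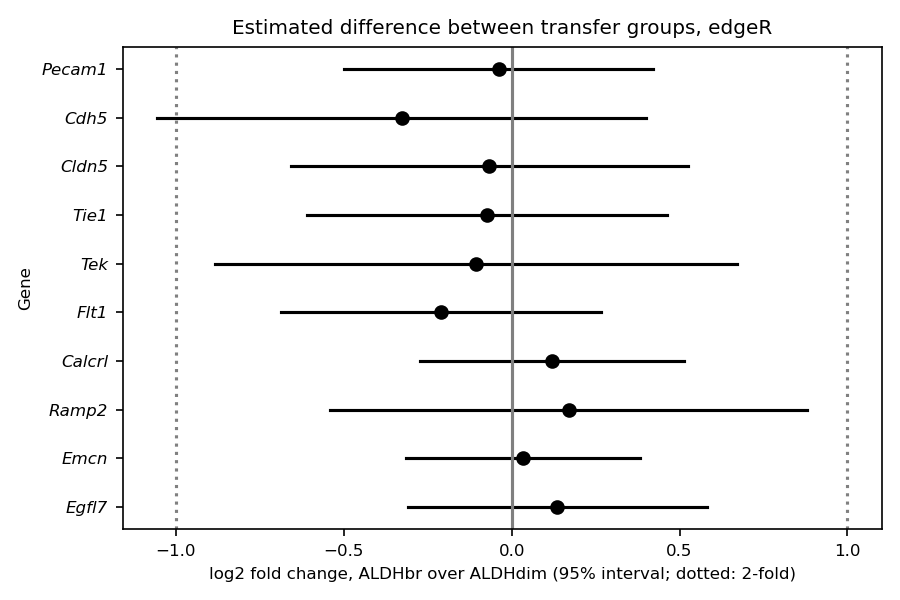
Log2 fold change of each endothelial gene, ALDHbr over ALDHdim (points), with the 95% interval of the edgeR fit (lines) and dotted lines at 2-fold either way. Every interval spans 0, and that of Cdh5 alone crosses a dotted line.

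Leaving out ALDHbr 3 and ALDHbr 5, the libraries with many detected genes, moved the median of the 10 log2 fold changes from −0.05 to 0.11. Estimates then became positive for Pecam1 (0.16), Cldn5 (0.08), Tie1 (0.21), Tek (0.14) and Flt1 (0.05) and negative for Emcn (−0.01). Again 0 of the 10 passed the threshold.

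By mean level over the 10 libraries the order was Calcrl (727 CPM), Ramp2 (426), Cldn5 (321), Pecam1 (309), Egfl7 (273), Cdh5 (263), Flt1 (152), Tek (94.0), Tie1 (80.6) and Emcn (63.3). Some neighbours in that order were not ordered alike in the libraries. Egfl7 exceeded Cdh5 in 5 of 10 libraries, Cldn5 exceeded Pecam1 in 6, Tek exceeded Tie1 in 7, and Pecam1 over Egfl7 and Tie1 over Emcn held in 8 each. Ramp2 was above Cldn5 in 9 libraries, and Calcrl over Ramp2, Cdh5 over Flt1 and Flt1 over Tek held in 10 of 10.

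In all 10 genes the difference between the group means was smaller than each group's SD. From the lowest to the highest library their levels spanned 1.84-fold (Emcn) to 3.56-fold (Tek), with a median of 2.39-fold, whereas the 3768 genes with a mean of at least 50 CPM had a median span of 1.72-fold. All 10 lay above that median. The biological coefficient of variation fitted by edgeR ran from 16.1% (Emcn) to 37.3% (Tek), against a median of 17.0% over all tested genes. It was above that median for 9 of the 10 and at or above the 80th percentile for 8.

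Most of the 10 genes were high or low in the same libraries. After each gene was set against its own mean over the 10 libraries, on the log2 scale, ALDHdim 2 averaged 0.63 above, with 10 of 10 genes above their own mean, and ALDHbr 1 averaged 0.45 above, with 8 of 10. ALDHdim 1 was 0.27 above (10 of 10), ALDHbr 2 0.16 above (6 of 10) and ALDHdim 3 at 0.03 (6 of 10). Below the mean lay ALDHbr 4 at −0.10 (1 of 10 above), ALDHbr 5 at −0.26 and ALDHbr 3 at −0.30 (2 of 10 each), ALDHdim 5 at −0.42 (0 of 10) and ALDHdim 4 at −0.45 (1 of 10). High and low libraries were thus found in both groups. By replicate number, libraries 1 and 2 lay above the mean in both groups and libraries 4 and 5 below it. Number 3 lay at −0.30 in ALDHbr and at 0.03 in ALDHdim. What same-numbered libraries share was not tested. Summed over the 10 genes, the level ran from 1839 CPM in ALDHdim 5 to 3929 CPM in ALDHdim 2. In bulk lung, fewer endothelial cells and less RNA per cell cannot be told apart.

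**Figure D3:**
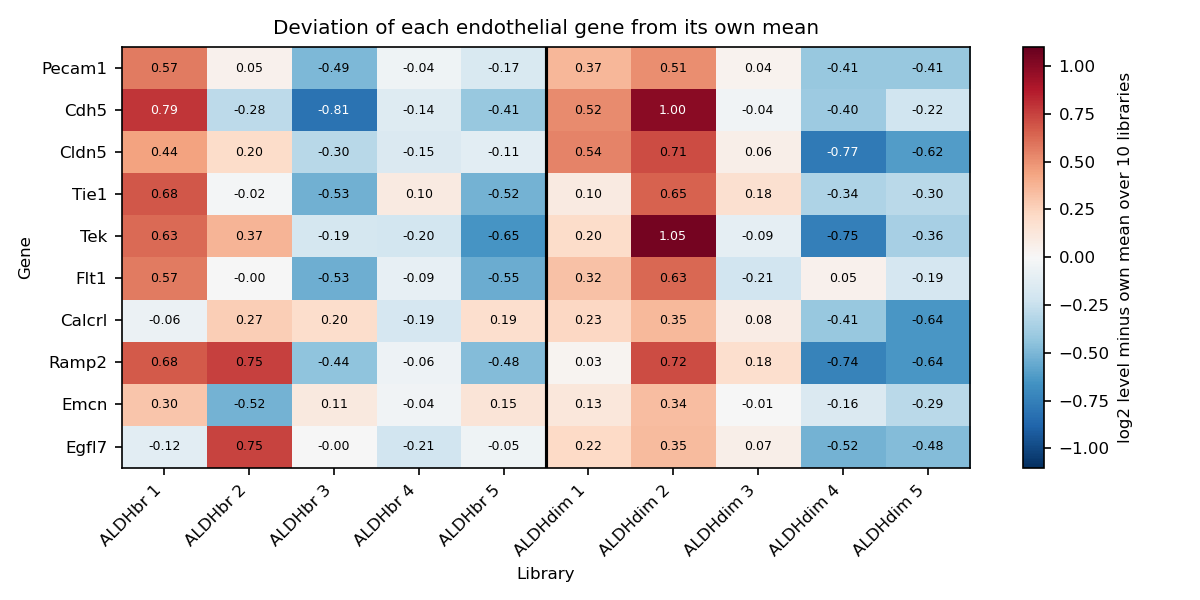
Log2 level of each endothelial gene minus its own mean over the 10 libraries, as colour and number, with ALDHbr libraries left and ALDHdim libraries right of the black line. The columns of ALDHdim 1 and ALDHdim 2 are above 0 throughout and that of ALDHdim 5 is below 0 throughout, while ALDHbr 2 runs from −0.52 (Emcn) to 0.75 (Ramp2).

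The 10 genes did not all follow the libraries alike. Over the 45 pairs the correlation of log2 CPM across the 10 libraries, given as a description of points that share a library and its depth, had a median r of 0.682 and ran from −0.0586 (Egfl7 with Emcn) to 0.93 (Pecam1 with Cldn5). Taking out the group means left a median of 0.748. Leaving out the 2 libraries farthest from the median, ALDHdim 2 and ALDHbr 1, both at the high end, left 0.603. Pecam1, Cdh5, Cldn5, Tie1, Tek, Ramp2 and Flt1, a set chosen after the values were seen, had 21 pairs with r from 0.659 to 0.93 (median 0.842). Without the 2 extreme libraries these pairs ran from 0.345 to 0.913 (median 0.673). Egfl7 and Calcrl, both outside that set, had an r of 0.846 with each other. They were not apart from all of the set, with an r of 0.721 and 0.749 with Cldn5 but 0.26 and 0.259 with Cdh5. Egfl7 had an r of 0.755 with Ramp2. Without the 2 extreme libraries Egfl7 had 0.895 with Ramp2 and 0.827 with Calcrl.

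Against the mean of the other 9 genes, Pecam1 followed most closely (r = 0.952), then Cldn5 (0.947), Tek (0.927), Ramp2 (0.881), Tie1 (0.876), Cdh5 (0.842) and Flt1 (0.768). Egfl7 (0.574), Calcrl (0.553) and Emcn (0.426) followed it least over the 10 libraries. Without the 2 extreme libraries the order was Cldn5 (0.941), Pecam1 (0.923), Tek (0.822), Ramp2 (0.804), Egfl7 (0.752), Tie1 (0.712), Cdh5 (0.603), Calcrl (0.6), Flt1 (0.447) and Emcn (−0.102). The low place of Egfl7 thus rests on those 2 libraries. Calcrl stayed low without them, Flt1 fell to a low place, and Emcn was lowest in both orders. Library ALDHbr 2, the shallowest, held the widest disagreement among the 10, with an SD of 0.406 on the log2 scale, against 0.0955 in ALDHbr 4. In ALDHbr 1, Egfl7 (−0.12) and Calcrl (−0.06) were the 2 genes below their own mean while Cdh5 was 0.79 above. In ALDHbr 3 and ALDHbr 5, Calcrl was above its own mean (0.20 and 0.19, respectively) while its partner Ramp2 was below (−0.44 and −0.48).

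In the ratio of 2 genes within a library, whatever scales both alike cancels. The counts of Ramp2 per count of Calcrl were 0.930, 0.781, 0.358, 0.610 and 0.351 in ALDHbr 1 to 5 and 0.485, 0.72, 0.5998, 0.445 and 0.558 in ALDHdim 1 to 5. The ALDHbr group held both the 2 highest and the 2 lowest values. Mean log2 ratios of −0.83 ± 0.64 and −0.85 ± 0.27 differed by 0.02 (exact two-sided permutation test, p = 0.937). Without ALDHbr 3 and 5 the difference was 0.46, with an exact adjusted p of 0.357.

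Cldn5 per count of Cdh5, the tight junction gene over the adherens junction gene, was 0.986, 1.75, 1.78, 1.24 and 1.54 in ALDHbr libraries and 1.27, 1.03, 1.34, 0.964 and 0.948 in ALDHdim libraries. The 3 highest values were all in ALDHbr recipients, but ALDHbr 1 lay with the low ALDHdim libraries. The mean log2 ratio was 0.51 ± 0.36 against 0.14 ± 0.23, a difference of 0.38 that did not pass (exact permutation p = 0.0952, adjusted over 4 ratios 0.381, where the smallest p the design allows is 0.0079). Without ALDHbr 3 and 5, which held 2 of the 3 highest ratios, the difference was 0.23 (exact permutation adjusted p = 0.643).

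Tie1 per count of Tek ran from 0.669 in ALDHdim 2 to 1.18 in ALDHdim 4, and Flt1 per count of Kdr, the main signalling receptor of VEGF, ran from 0.819 in ALDHdim 2 to 1.51 in ALDHdim 4. For both ratios the ALDHdim group spanned the whole ALDHbr range at its upper end and its lower end. The group differences in mean log2 ratio were −0.10 for Tie1 over Tek (exact permutation p = 0.651) and −0.02 for Flt1 over Kdr (exact permutation p = 0.921), both with an adjusted p of 0.937.

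**Figure D4:**
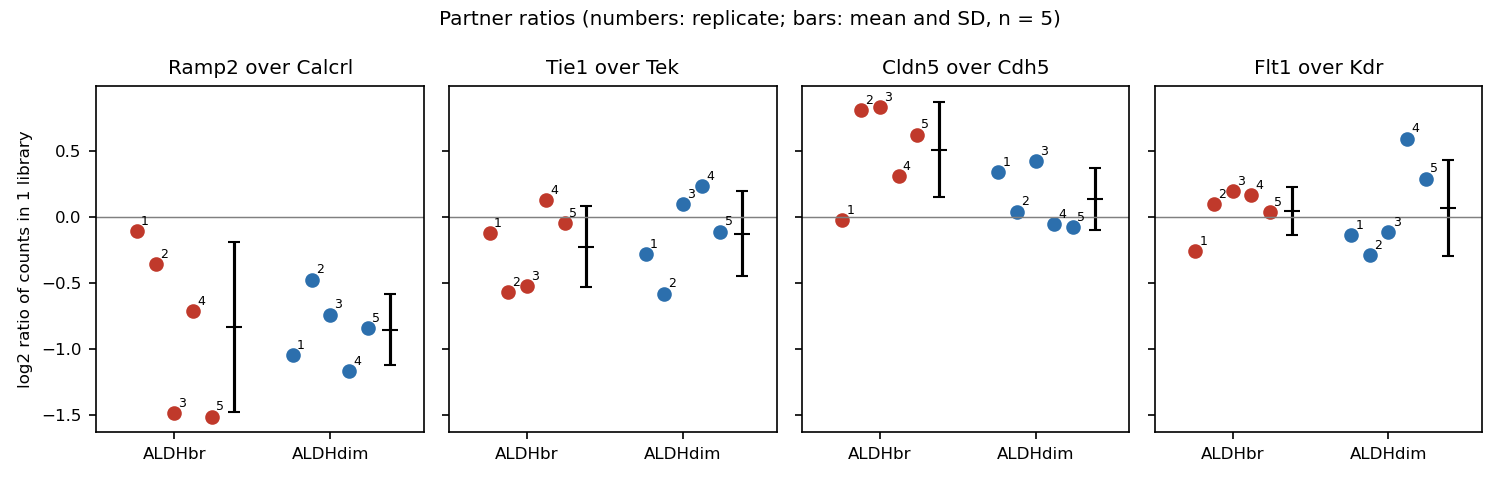
Log2 ratio of 4 pairs of partner genes in each library (numbered points, ALDHbr red, ALDHdim blue), with group means and SD as black bars and a grey line at equal counts. The ALDHbr points of Ramp2 over Calcrl spread from −1.51 to −0.10, and the Cldn5 over Cdh5 means stand at 0.51 and 0.14.

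Other genes of the same pathways also gave 0 calls with edgeR in each list. At an unadjusted p under 0.05 there were 0 in each of these 5 lists, against 3.71% of all genes. Summed list levels had an r with the mean centred level of the 10 genes of 0.924 (angiopoietin and Tie), 0.86 (VEGF), 0.427 (adrenomedullin and CGRP), 0.926 (junction and surface partners) and 0.948 (transcription factors). Genes that move together are not separate results, so counts of signs, here and below, are descriptions. In the angiopoietin and Tie pathway 6 of 8 listed genes were tested, all 6 with lower estimates in ALDHbr recipients (median log2 fold change −0.13). They included Ptprb, the phosphatase that restrains Tek, at 342 ± 125 and 399 ± 164 CPM (−0.23, SE 0.29), and the Tek ligand Angpt1 (−0.13, SE 0.18). In the VEGF pathway 9 of 10 were tested, 1 higher and 8 lower (median −0.19). Vegfa, the ligand, differed by −0.12 (SE 0.28), its co-receptor Nrp1 by −0.31 (SE 0.17) and Kdr by −0.21 (SE 0.37).

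For the adrenomedullin and CGRP pathway 5 of 10 listed genes were tested, 2 higher and 3 lower (median −0.08). Ramp1, which turns Calcrl into a receptor for CGRP, differed by 0.15 (SE 0.16), the peptidase gene Mme by −0.08 (SE 0.25) and the scavenger receptor gene Ackr3 by −0.14 (SE 0.18). Adm, the ligand, averaged 5.71 CPM and Ramp3, the other accessory protein of the adrenomedullin receptor, 7.78 CPM. Both were under the count filter.

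Of 24 junction and surface partners 22 were tested, with 4 higher and 18 lower estimates (median −0.09). Ctnna1, an alpha catenin that links cadherins to actin, differed by −0.19 (SE 0.15), Cd93 by −0.04 (SE 0.28), Clec14a by −0.05 (SE 0.31) and Jup, plakoglobin, by −0.27 (SE 0.22). Of 22 endothelial transcription factors 21 were tested, 9 higher and 12 lower (median −0.03), with Epas1, the hypoxia-inducible factor abundant in endothelium, at −0.35 (SE 0.36) and the flow-responsive Klf2 at −0.0016 (SE 0.42).

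Genes whose levels followed the 10 endothelial genes most closely were picked from 9817 tested genes with a mean of at least 10 CPM, by Pearson r over the 10 libraries with the mean centred level of the 10. They were Npr1, the receptor of atrial natriuretic peptide (0.979), Impdh1 (0.976), the arterial ligand Efnb2 (0.971), the surface lectin Cd93 (0.967), Lrp5 (0.962), Tbx3 (0.96), Adgre5 (0.96), the transcription factor Gata2 (0.959), Cyth3 (0.958) and Grk3 (0.956). Without the 2 extreme libraries these values lay between 0.902 and 0.98. Efnb2, Cd93, Tbx3 and Gata2 are also in the lists of other endothelial genes. None of the 10 had a log2 fold change beyond 0.15 in either direction between the groups.

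Levels of other cell types moved with the library pattern, and their part in it was not tested. Summed leukocyte markers (7 of 9 tested, 2 higher and 5 lower, median −0.12) stood lowest in ALDHbr 2 and ALDHbr 1, at 906 and 968 CPM, and highest in ALDHdim 5, ALDHdim 4 and ALDHbr 4, at 1817, 1575 and 1528 CPM. The group ranges were 906 to 1528 CPM for ALDHbr and 1120 to 1817 CPM for ALDHdim. Their r with the endothelial genes over the 10 libraries was −0.796, a description. The mitochondrial share of counts was 5.06% in ALDHbr 1 and 6.20% in ALDHdim 2, where the endothelial genes were high. It was 7.97% and 8.56% in ALDHdim 4 and 5, where they were low, but 5.81% in ALDHbr 4, where 9 of 10 genes lay below their own mean. The other 5 libraries lay between 5.99% and 8.07%.

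Erythrocyte markers (4 of 5 tested, 4 higher, median 0.36) summed to 1617 CPM in ALDHdim 4 and 2004 CPM in ALDHdim 5, the 2 libraries with the lowest endothelial levels, and to 4571 CPM in ALDHbr 5. In the other 7 libraries they lay between 7493 and 14234 CPM. Platelet markers (3 of 7 tested, 0 higher and 3 lower, median −0.60) summed to 64.7 to 102 CPM in ALDHbr and 74.0 to 123 CPM in ALDHdim libraries. One of them, Itgb3, had an unadjusted p of 0.0166 with edgeR (adjusted p = 0.999). Smooth muscle markers (6 of 6 tested, 6 lower, median −0.16) ran from 391.96 to 923 CPM in ALDHbr and 596 to 818 CPM in ALDHdim libraries, and pericyte markers (9 of 9, 4 higher and 5 lower, median −0.05) from 248 to 573 and 277 to 485 CPM.

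Markers of endothelial subtypes tracked the 10 genes across libraries to different degrees, as r of summed log2 level given without a test. The r was 0.936 for general capillary markers (9 of 10 tested, median log2 fold change −0.07) and 0.901 for markers of aerocytes, the thin capillary cells of gas exchange (11 of 11, −0.07). It was 0.665 for artery and vein markers (10 of 12, −0.07) and 0.614 for lymphatic markers (5 of 8, 0.04). Each sum mainly describes its most abundant genes. In the aerocyte list Igfbp7 (mean 960 CPM), Emp2 (898 CPM) and Cyp4b1 (406 CPM) were above Kdr, the next (153 CPM). In the lymphatic list Pdpn (394 CPM), also listed as a type 1 cell marker here, and Lyve1 (300 CPM) were far above Mmrn1, the next (29.1 CPM). Lists of other cells followed to a like degree, with an r of 0.725 for smooth muscle markers and 0.669 for alveolar type 2 cell markers. The latter (8 of 8 tested, 5 higher and 3 lower, median 0.04) summed to 52693 CPM in ALDHbr 2 and 42996 CPM in ALDHdim 2, and to 24475 and 22709 CPM in ALDHdim 4 and 5. The group ranges were 25964 to 52693 CPM for ALDHbr and 22709 to 42996 CPM for ALDHdim, and the part of these cells in the pattern was not tested. No gene of these 6 lists passed the threshold with edgeR, and 0 reached an unadjusted p under 0.05, against 3.71% of all genes.

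**Figure D5:**
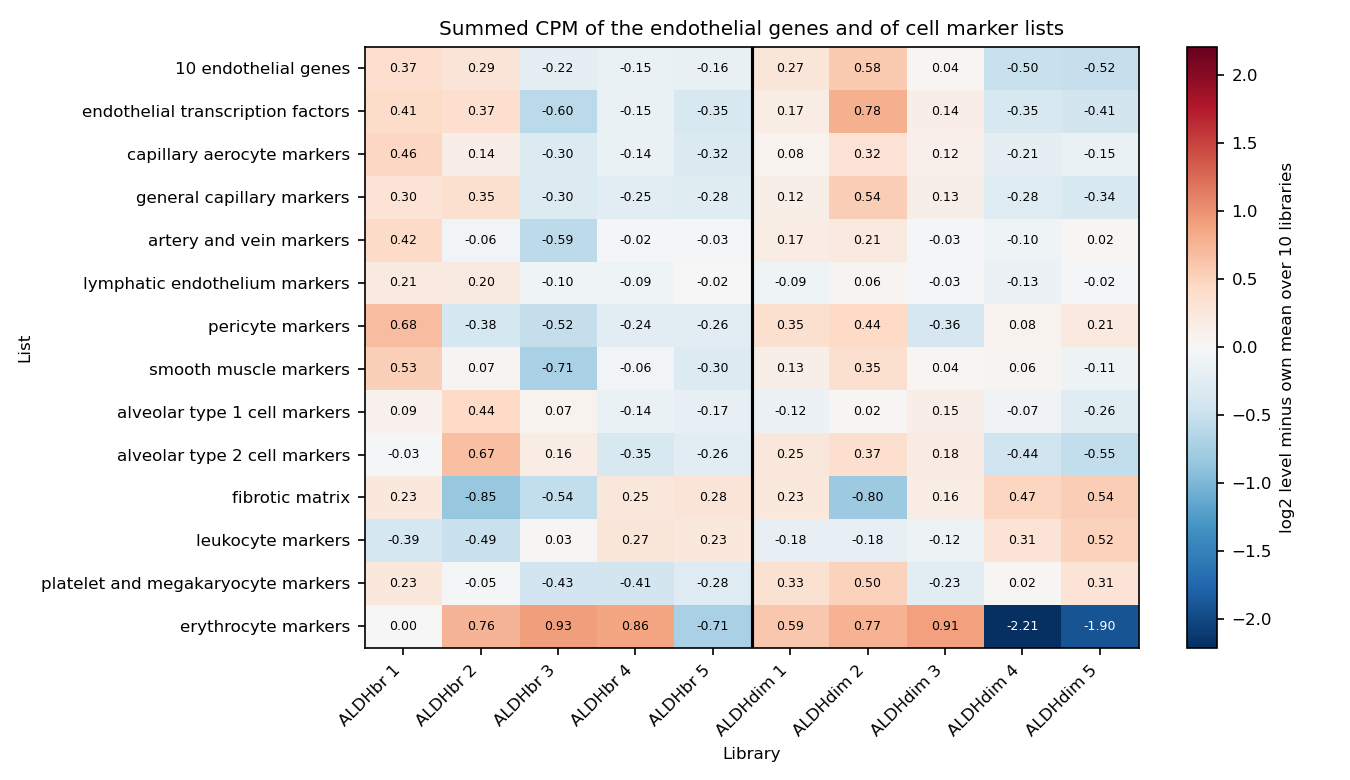
Summed CPM of the 10 endothelial genes and of marker lists in each library, as log2 level minus the list's own mean over the 10 libraries, with ALDHbr libraries left of the black line. The capillary rows follow the endothelial row, the leukocyte row runs against it, and the erythrocyte row falls to −2.21 and −1.90 in ALDHdim 4 and 5.

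The alveolar wall joins endothelium to type 1 epithelium, and bleomycin adds collagen to it, so each endothelial gene was set against summed type 1 cell markers and against summed fibrotic matrix genes, 20 relations in all. Of 9 matrix genes tested 9 had lower estimates in ALDHbr recipients (median −0.37), and of 9 type 1 cell markers 7 were higher and 2 lower (median 0.09), with 0 calls in either list. Over the 10 libraries, summed matrix genes had an r of −0.484 with the mean centred level of the 10 endothelial genes, a description. Sparc weighed most in that sum, at a mean of 3586 CPM against 658 CPM for Col3a1, the next. Matrix levels fell into 2 clusters, 3184 to 3944 CPM in ALDHbr 2, ALDHbr 3 and ALDHdim 2 and 6408 to 8342 CPM in the other 7 libraries. In the low cluster the mean endothelial level was 0.16 and 0.63 above in ALDHbr 2 and ALDHdim 2 but −0.30 in ALDHbr 3. The r of each gene was taken within the 7 only. All 10 endothelial genes, measured in the same libraries, had a negative r there. It was −0.872 for Egfl7 (permutation p = 0.0143, adjusted p = 0.109) and −0.869 for Calcrl (permutation p = 0.0160, adjusted p = 0.109), with Spearman's rho of −0.821 and −0.714 (permutation adjusted p = 0.137 and 0.177). It was nearest 0 for Flt1 (−0.171, permutation p = 0.726). None passed after adjustment, and an r was not taken on the 5 libraries that would be left after removing 2 of the 7. Without ALDHbr 5, which left 6 libraries of the cluster, r was −0.916 for Calcrl and −0.872 for Egfl7 (permutation adjusted p = 0.146 each).

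With type 1 cell markers over the 10 libraries, r was highest for Egfl7 (0.739, permutation p = 0.0164, adjusted p = 0.109; rho = 0.564, adjusted p = 0.177) and Ramp2 (0.685, permutation p = 0.0244, adjusted p = 0.118; rho = 0.709, adjusted p = 0.137). Without the 2 libraries farthest from the median of the markers, ALDHbr 2 and ALDHdim 5, these were 0.219 and 0.474, so the value for Egfl7 rests on those libraries. For the other 8 genes r lay between −0.269 (Emcn) and 0.525 (Calcrl), and 0 of 10 passed. Taken within groups, by centring, r was 0.725 for Egfl7 and 0.676 for Ramp2.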

How the data were processed

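Lung RNA was measured in 10 libraries. It was extracted with TRIzol and RNeasy columns and made into BRB-seq libraries, with a 10 nt UMI and a 9 nt barcode in read 1 and 81 nt of insert in read 2, per the labels' protocols. Tools named in the submitters' processing notes, with no roles, are featureCounts 2.0.1, HISAT2 2.2.1, DESeq2, UMI-tools and Trim Galore 0.6.7, beside the builds GRCm38 and GRCh38. The authors deposited whole-number counts per gene, not normalized. UMI collapsing, strand use and annotation are stated by no source used here, and without collapsing, PCR copies inflate counts, so counting errors cover counting only. The 10 columns carried each library's group and number, and 0 columns belonged to other samples.

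The endothelial genes and all lists were chosen with earlier results of these data known. Genes were filtered with filterByExpr (minimum count 10), scaled by TMM and compared with edgeR 4.0.16 in R 4.3.3 over all 10844 genes, with group as the only term. The test was checked on counts simulated for each gene separately, which lack the library patterns that genes share here. Intervals are 95% intervals of that fit. All 10 endothelial genes are named. Other genes are up to 4 of the highest mean level per list, genes past the threshold, and the 10 most correlated (log2 CPM, prior count 2), leaving out predicted names. Nkx2-1, Erg, Sox17, Adm, Ramp3 and Itgb3 were named after their values were seen. Ratios (prior 0.5 count) were compared over all 252 assignments of libraries, and relations by 100000 permutations with scipy 1.17.1. Matrix relations were planned over 10 libraries but taken within a cluster of 7. Alternatives were other scalings and filters, DESeq2 1.42.0, limma-voom (limma 3.58.1), a replicate term, removal of abundant genes and leaving out libraries. Gene positions are from GENCODE on GRCm38, and promoters and the microRNA from RefSeq on GRCm38.p6. Plots were drawn with matplotlib 3.10.9.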

Additional observations from a re-analysis of the deposited data

Results flagged for a closer look

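Among 30 sets of 5 libraries, 2 held a library that stood apart from the other 4 by more than a Dixon test at 95% allows. Chance gives about 1 in 20, or 1.5 of 30. Cdh5 stood at 421.17 CPM in ALDHbr 1, where the rest of its group ran from 138 to 220.3 CPM, a gap of 0.71 of the group's range. Egfl7 stood at 444.0 CPM in ALDHbr 2, where the rest ran from 228 to 264 CPM, a gap of 0.834 of the range. ALDHbr 2 had the fewest counts of all libraries (588063), and its Egfl7 value rests on 227 counts.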

How the results depend on the processing

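The count of endothelial genes past the threshold was 0 of 10 under each of the 19 alternative fits, with a smallest adjusted p of 0.434 for any of them. Over all genes the count was 0 except with no low-count filter, where 185 passed, with 0 of the 10 among them. Signs of estimates near 0 were less stable. The log2 fold change was 0.028 for Cldn5 with the replicate block and −0.025 for Emcn with no filter. Without ALDHbr 3 and 5 it was 0.16 for Pecam1, 0.080 for Cldn5, 0.21 for Tie1, 0.14 for Tek, 0.046 for Flt1 and −0.014 for Emcn. Leaving out each library in turn gave −0.22 to 0.10 for Pecam1, −0.67 to −0.06 for Cdh5, −0.22 to 0.14 for Cldn5, −0.34 to 0.12 for Tie1, −0.34 to 0.27 for Tek and −0.45 to −0.05 for Flt1. It gave 0.00051 to 0.24 for Calcrl, −0.010 to 0.43 for Ramp2, −0.052 to 0.14 for Emcn and −0.071 to 0.25 for Egfl7. Under the same single omissions the difference in log2 ratio ran from −0.16 to 0.19 for Ramp2 over Calcrl, −0.11 to 0.11 for Flt1 over Kdr, −0.21 to −0.01 for Tie1 over Tek and 0.30 to 0.51 for Cldn5 over Cdh5, and without both ALDHbr 3 and 5 it was 0.46 for Ramp2 over Calcrl and 0.23 for Cldn5 over Cdh5. The r of Cdh5 with type 1 cell markers was −0.0102 without ALDHbr 3 and 5, and that of Emcn was 0.262 without ALDHbr 2 and ALDHdim 5. The cause was not tested. Same-numbered libraries had correlations of deviations of 0.062, 0.366, 0.15, 0.259 and 0.281, all positive. The ALDHbr libraries correlated best with their own number for 2, 3 and 5. The titles number replicates and name no pairs, so the main fit left the numbers out, and whether they are pairs was not tested. With the replicate block the SE of the log2 fold change fell for each endothelial gene except Emcn (0.16 to 0.17). It fell from 0.35 to 0.16 for Tek, from 0.33 to 0.16 for Ramp2 and from 0.33 to 0.19 for Cdh5. With this block 0 genes passed. Counts as low as 22 (Emcn) and 39 (Tie1) in ALDHbr 2 limit those values.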
